A study of Sus scrofa with 35 samples.

Results

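KIT, the gene of the dominant white coat locus in pigs, is 1 of 11581 genes with a symbol on the array used here and was read by 4 of its 60305 probes. These are all the non-control probes that carry KIT as gene name in the scanner files, and all 4 passed the filter on dim probes, which kept 41517. A further set of spots under another gene name holds the same 60 bases as KIT probe A_72_P165111 and is given apart as the second spot set. KIT was chosen by its difference in level between Creole and Large White pigs on these same arrays, so the values of that difference are given as a description, without a test.

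RNA came from longissimus dorsi (LD), a back muscle, of castrated males of the Creole breed, of Large White and of their F1 cross. The 35 arrays fall into 6 groups, Creole, F1 and Large White at thermoneutrality (TN) or under heat stress (HS), with 6 arrays in each except F1 HS, which has 5. Every pig entered the climatic room at 11 weeks of age and was held at 24 °C. TN pigs were slaughtered before the temperature rose, and HS pigs after 4 or 5 days of heat, so age, slaughter day and pen differ with the treatment. For HS, the temperature is 30 °C in the sample labels but 32 °C in the protocol text and in the methods of the study. Each breed consisted of littermate groups per the study methods, which the labels do not identify, so every p-value below treats littermates as independent animals. Neither coat colour nor KIT genotype is given in the labels.

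KIT is a receptor tyrosine kinase of the cell surface. Its ligand, the stem cell factor KITLG, pairs the receptors, which then phosphorylate each other and recruit adaptors of the PI3-kinase, RAS and JAK/STAT routes. Melanocyte precursors need KIT to survive and to migrate into the skin, and in white European pigs the dominant white allele carries a duplicated KIT gene together with a splice mutation. Outside the skin, KIT marks mast cells, blood progenitors and interstitial cells of the gut. Muscle fibres are not a known site of high KIT expression, so in a muscle sample its transcript may come from minor cell types.

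The RefSeq gene table of Sscrofa11.1 places KIT on chr8:41402334-41492306, a span of 89973 bases. Per the annotation in the scanner files, A_72_P180731 covers bases 2784 to 2843 of the KIT transcript, in the part that encodes the end of the receptor inside the cell. A_72_P441559 covers bases 3525 to 3584 and A_72_P165111 bases 3624 to 3683, both in the 3′ UTR. No position is given for O299. The sequences of A_72_P180731 and O299 are shown because these probes nearly coincide and count as 1 site, and because they are the only KIT probes in coding sequence. Capitals mark the 57 bases they share.
A_72_P180731: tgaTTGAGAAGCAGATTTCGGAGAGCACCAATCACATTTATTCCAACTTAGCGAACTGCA
O299: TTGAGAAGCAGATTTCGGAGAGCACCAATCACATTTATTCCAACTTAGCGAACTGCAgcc
O299 begins 3 bases further along the transcript than A_72_P180731. The 4 probes give a summed signal and do not separate transcripts of different KIT copies or alleles.

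The breeds did not differ in array brightness by more than its spread. Depending on the array, 58.4% to 75.8% of probes were flagged as well above background. The upper quartile (75th percentile) of raw log2 intensity was 9.15 ± 0.23 in Creole (SD, 12 arrays), 9.10 ± 0.14 in F1 (11 arrays) and 9.18 ± 0.27 in Large White (12 arrays). By temperature it was 9.05 ± 0.17 in TN (18 arrays) and 9.24 ± 0.24 in HS (17 arrays), so HS arrays were somewhat brighter before normalisation. The share well above background was 58.4% to 72.8% in TN and 63.9% to 75.8% in HS. The tissue label was checked by 12 measured muscle markers, such as the actin gene ACTA1 and the creatine kinase CKM. Their mean log2 level lay between 17.76 and 18.15 on every array, at the top of the intensity range, where quantile normalisation makes arrays alike, so it says nothing of differences between breeds.

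KIT was lowest in Creole, intermediate in F1 and highest in Large White, at both temperatures and by all 4 probes. By the brightest probe, A_72_P165111, the log2 normalised intensity averaged 7.73 ± 0.39 in the 12 Creole arrays, 8.51 ± 0.39 in the 11 F1 arrays and 9.66 ± 0.60 in the 12 Large White arrays (mean ± SD). In muscle as a whole, fewer KIT-expressing cells and less KIT RNA per cell cannot be told apart.

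In Creole TN the lowest, median and highest values of A_72_P165111 were 7.04, 7.64 and 8.15. In Creole HS they were 7.45, 7.82 and 8.34. The Creole groups lay on top of each other, with means of 7.66 ± 0.46 and 7.80 ± 0.33 (SD, n = 6 each). In F1 TN the lowest, median and highest values were 8.33, 8.48 and 9.41, and the 5 F1 HS arrays read 7.85, 8.24, 8.39, 8.66 and 8.68. No Creole TN array reached the lowest F1 TN array, whereas 2 of 5 F1 HS arrays lay below the highest Creole HS array. In Large White TN the lowest, median and highest values were 8.85, 9.57 and 10.95, and in Large White HS they were 9.18, 9.57 and 10.02. Large White TN was the most variable group by this probe, with an SD of 0.83 against 0.32 to 0.46 in the other groups. Its lowest values, 8.85 and 8.91, were both from slide 5.

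**Figure D1:**
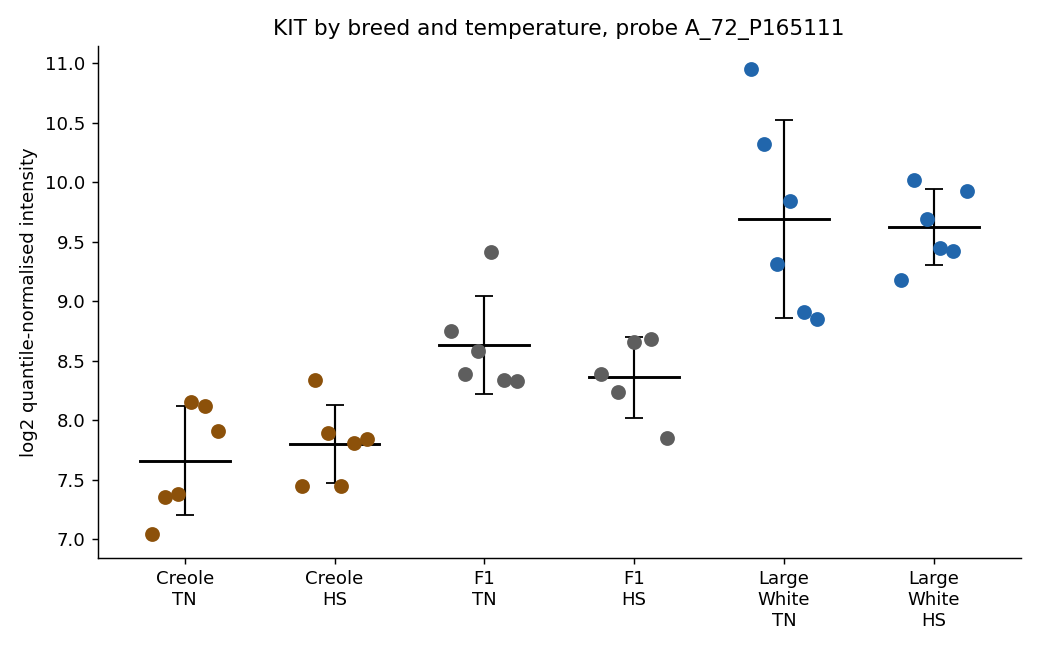
Log2 quantile-normalised intensity of KIT probe A_72_P165111 on each of the 35 arrays, by breed and temperature. Points are arrays, and lines and bars are the mean and SD of the group (n = 6, or 5 in F1 HS). No Creole array reaches the lowest Large White array, at 8.85, and 1 F1 array, at 9.41, lies above it.

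In the order of group means, Creole TN, Creole HS, F1 HS, F1 TN, Large White HS and Large White TN, the neighbours within a breed differed by less than the SD of either group. Between breeds, the ranges of Creole HS and F1 HS met, as did those of F1 TN (highest 9.41) and Large White HS (lowest 9.18).

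The normalised values of each probe were lower in Creole than in Large White. Creole minus Large White was -1.93 (SE 0.19) on the log2 scale by A_72_P165111, a 3.81-fold higher intensity in Large White. By the other 3′ UTR probe, A_72_P441559, it was -1.76 (SE 0.17, 3.40-fold). The values of the coding probes differed by -1.08 (O299) and -0.88 (A_72_P180731), but both were well above background on only 1 of 12 Creole arrays, so these are differences from a level close to background and do not measure the size of the breed difference. All 4 are values of the contrast by which KIT was chosen, in a comparison in which 3.64% of all kept probes differed. No Creole array lay above the lowest Large White array by A_72_P165111, A_72_P441559 or O299, and 1 did by A_72_P180731. This separation belongs to the same contrast, and its share over all kept probes was not counted.

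The probes with the smaller difference were also the dimmer ones. Their levels ran from 4.99 to 7.14, against 7.04 to 10.95 for the 3′ UTR probes. The flag for a signal well above background was set for O299 on 1 of 12 Creole, 6 of 11 F1 and 12 of 12 Large White arrays, and for A_72_P180731 on 1, 5 and 11 of them. They thus passed the filter through the Large White groups. In Creole HS each was above background on 1 of 6 arrays. In Creole TN neither was on any array, and there they give only a bound. For intensities without background subtraction, the bound on Large White TN over Creole TN was 1.98-fold by O299 and 1.86-fold by A_72_P180731. It lies close to the measured ratio, since the floor averaged 5.33 and 5.34, against measured Creole TN means of 5.31 and 5.33. It is no minimum under other treatments of the background, and normexp gave smaller breed differences. The bound divides the mean Large White intensity by the lowest signal of probes well above background on each Creole array, or by the probe's own signal where that was higher.

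The values of the coding probes moved with the treatment of the background, and in both directions. With the background-subtracted processed signal, scaled to the 75th percentile of each array, Creole minus Large White was -2.14 (SE 0.21) by A_72_P165111, -1.95 by A_72_P441559, -2.52 by O299 and -2.23 by A_72_P180731. With normexp background correction it was -1.82, -1.62, -0.65 and -0.61. The coding probes thus gave larger differences than the 3′ UTR probes with the first setting and smaller ones with the second, and the direction was the same in both.

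**Figure D2:**
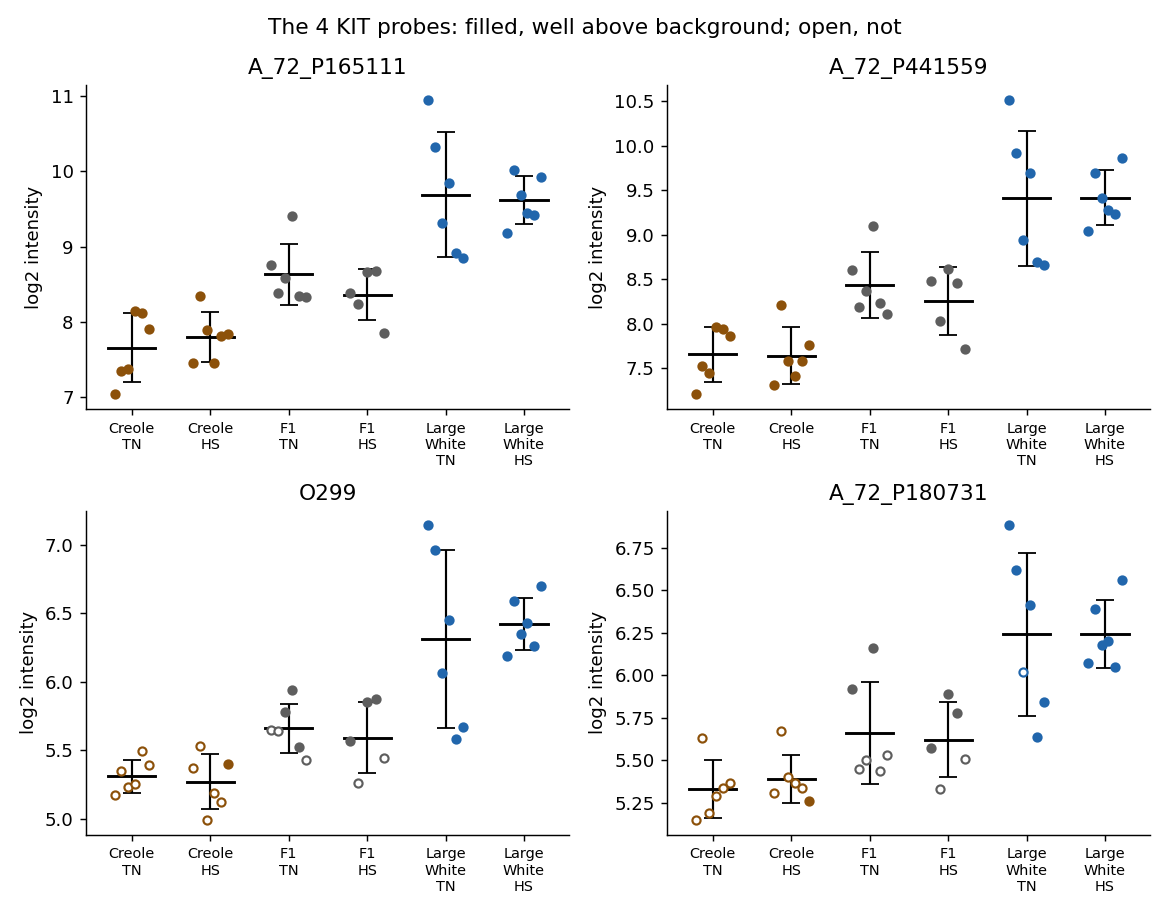
Log2 quantile-normalised intensity of the 4 KIT probes on each array, by breed and temperature, with the mean and SD of each group. The y axes differ between panels. Filled points are well above background and open points are not: both 3′ UTR probes (top) are filled on all 35 arrays, and the coding probes (bottom) on 19 and 17.

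The 4 probes rose and fell together from array to array. Across the 35 arrays their Pearson r lay between 0.944 and 0.992, a range that the breed difference widens. After removal of the group means it still lay between 0.829 and 0.974. The second spot set, with the same bases as A_72_P165111, tracked it with r = 0.995 and differed from it by at most 0.262 log2 on any array. All of these values share the same RNA sample and array, so they describe the precision of the measurement and not independent evidence.

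Creole was lower than Large White at each temperature and on each slide. Creole minus Large White by A_72_P165111 was -2.04 (SE 0.32, 4.11-fold) on TN arrays alone and -1.82 (SE 0.18, 3.53-fold) on HS arrays alone. Within the 5 slides, each with arrays of both breeds, it was -2.78, -2.05, -1.39, -2.16 and -1.04. The last rests on 1 Creole HS and 2 Large White TN arrays, so on that slide breed and temperature cannot be told apart. With slide as a block in the fit over all arrays it was -1.95 (SE 0.18), and when each of the 35 arrays was left out in turn it ranged from -2.01 to -1.81.

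Whether KIT responded to the heat challenge was tested with limma over all 35 arrays, a contrast that played no part in the choice of the gene. None of the 4 KIT probes was called or had an unadjusted p under 0.05. Of all 41517 kept probes, 16% were called, and 12748 had an unadjusted p under 0.05. The coding probes, O299 and A_72_P180731, were well above background on only 1 of 12 Creole arrays. In Creole their heat contrast compares levels close to background, which also enters their change over all breeds. By A_72_P165111, the mean level was 8.66 on the 18 TN arrays (SD 1.02) and 8.61 on the 17 HS arrays (SD 0.86), SDs that include the breed difference. The fitted change, HS minus TN with breed in the model, was -0.062 (SE 0.16, 95% interval -0.38 to 0.26, limma adjusted p = 0.829). The other probes gave -0.056 (adjusted p = 0.827), 0.0032 (adjusted p = 0.988) and 0.0074 (adjusted p = 0.966) in limma. The interval by the brightest probe spans a ratio of HS to TN from 0.769 to 1.19, so a change of any size within that span remains compatible with these arrays. With slide as a block the change was -0.093 (SE 0.15, limma adjusted p = 0.703).

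Within breeds, no KIT probe was called either. The coding probes were close to background in Creole, which limits their tests there and in the interaction. The limma change of A_72_P165111 with heat was 0.14 (SE 0.27, adjusted p = 0.804) in Creole, where 1.91% of kept probes were called. It was -0.27 (SE 0.28, adjusted p = 0.891) in F1 and -0.077 (SE 0.27, adjusted p = 0.909) in Large White, and in each of these breeds 0.00482% of probes (2 probes) were called. The signs differed between breeds, and every 95% interval included 0. The limma test of the breed by temperature interaction gave adjusted p values between 0.966 and 0.987 for the KIT probes. No probe on the array was called in that test (0%). Of the 41517 kept probes, 1593 had an unadjusted p under 0.05, a share that is itself below 0.05.

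**Figure D3:**
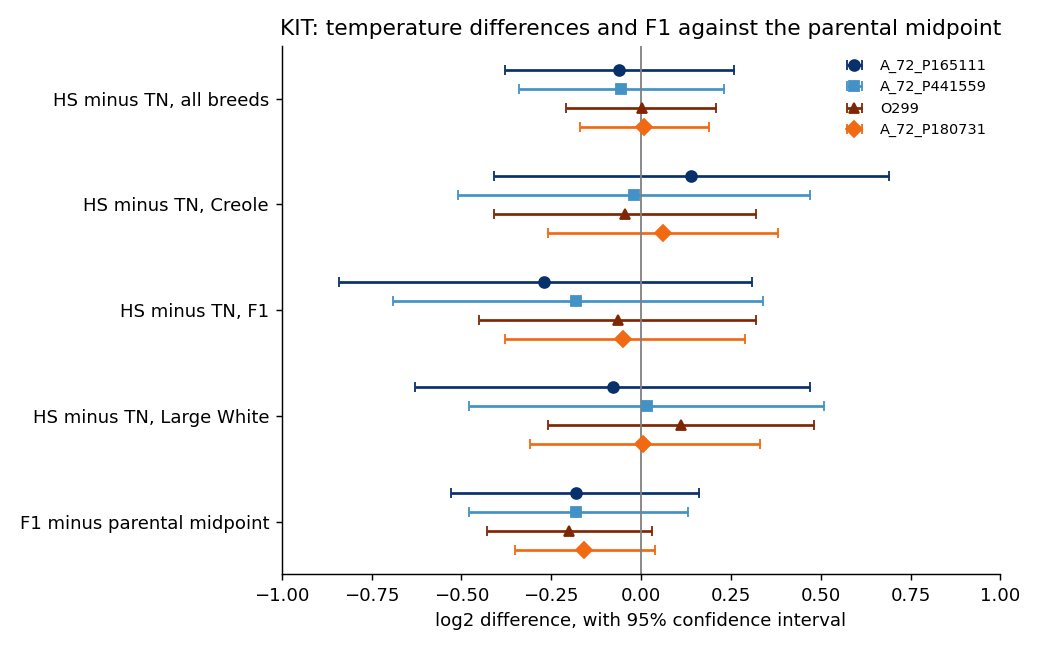
Differences of the 4 KIT probes on the log2 scale with 95% confidence intervals from limma. The upper groups of points are HS minus TN over all breeds and within each breed, and the lowest group is F1 minus the midpoint of Creole and Large White, a description. Every HS minus TN interval crosses 0, and the F1 intervals are not read as a test. The coding probes (O299 and A_72_P180731) are near background in Creole and are not used to place F1.

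The F1 pigs were set against the midpoint of their parental breeds. The midpoint is made of the Creole and Large White arrays by which KIT was chosen, and the place of F1 between the parents belongs to the pattern KIT was chosen for, so the following values are a description without a test. In this comparison limma called 0.246% of all kept probes. F1 minus the midpoint was -0.18 (SE 0.17, 95% interval -0.53 to 0.16) by A_72_P165111 and -0.18 (SE 0.15) by A_72_P441559. With slide as a block, A_72_P165111 gave -0.23 (SE 0.17). The 3′ UTR probes share their arrays, so their values are not separate observations. The coding probes, which are in the plot of differences, are not used to place F1, since they were well above background on 1 of 12 Creole arrays.

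F1 stood 1.15 log2 below Large White and 0.78 above Creole by A_72_P165111. This places it at 40% of the log2 distance from Creole to Large White, and A_72_P441559 placed it at 39.6%. On TN arrays alone, F1 minus the midpoint by A_72_P165111 was -0.043 (SE 0.27), and on HS arrays alone it was -0.34 (SE 0.17).

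The position of F1 depended on the scale. On the linear intensity scale of the same normalised values, A_72_P165111 averaged 219 in Creole, 374 in F1 and 879 in Large White, with a parental midpoint of 549. F1 minus the linear midpoint was thus -175 intensity units (SE 71.1), at 23.5% of the distance from Creole to Large White. The other 3′ UTR probe placed F1 at 24.9% of the linear distance.

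The partners of KIT were examined in turn. Its ligand KITLG has a pair of probes on the array, and neither passed the filter. They were well above background on 2 and 0 of 35 arrays, with log2 intensities between 4.83 and 5.82, so the ligand was not measurable here in any breed.

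Of the 32 genes listed for the ligand and its signalling, 26 were measured. None was called by limma between Creole and Large White, where 3.72% of all 9538 genes with a symbol were. Of the 26, 4 had an unadjusted p under 0.05, as did 1526 of the 9538. The median difference of the list was -0.077, and the list ran from -0.27 to 0.26. When any kept probe of a gene was counted, 2 genes were called. GRB2, the adaptor that links the receptor to RAS, differed by -0.10 (SE 0.11), the regulatory PI3-kinase subunit PIK3R1 by -0.05 (SE 0.10) and the phosphatase PTPN6, which damps KIT signalling, by -0.19 (SE 0.32).

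With heat, 6 of the 26 signalling genes passed the limma test, 4 higher and 2 lower. This share of 23.1% is near the 18.4% of all genes. PTPN6 rose by 0.92 (SE 0.26, adjusted p = 0.0156), the adaptor DOK1 by 0.59 (adjusted p = 0.0202), the ubiquitin ligase CBL, which marks KIT for degradation, by 0.37 (adjusted p = 0.0209) and the kinase FYN by 0.30 (adjusted p = 0.0162). These 4 kept the limma call in all 35 fits that left out 1 array. The adaptors SH2B3 (-0.23, adjusted p = 0.0462) and CRKL (-0.14, adjusted p = 0.0405) fell by their brightest probes, and kept the call in 13 and 19 of those fits. SH2B3 had 4 other kept probes. Of these, 3 pointed upwards and 0 were called lower, so the call rests on its brightest probe. The 1 other kept probe of CRKL was called lower too. Among the 4 genes that rose, all 3 other kept probes of PTPN6 and 1 of 2 of CBL were called higher too. For DOK1 0 of 2 were, and for FYN 0 of 3, with 1 pointing downwards. PTPN6 is mainly known from blood cells, and the mean level of the 8 measured leukocyte markers had a median of 8.20 in TN (7.47 to 8.87) and 8.45 in HS (8.05 to 9.09), with 1 of 8 (12.5%, against 18.4% of all genes) called. This was the macrophage receptor CD163, which kept the call in 13 of the 35 fits that left out 1 array. The part of leukocytes in these changes was not tested.

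The receptors most like KIT in structure are the other class III tyrosine kinases. Of the 3 measured, none was called by limma between breeds, where 3.72% of all genes were. Of these 3, 1 had an unadjusted p under 0.05, as did 1526 of all 9538 genes. PDGFRA differed by -0.13 (SE 0.09), PDGFRB by -0.23 (SE 0.09) and the macrophage colony-stimulating factor receptor CSF1R by 0.04 (SE 0.27). FLT3 had no kept probe. CSF1R rose with heat by 0.93 (SE 0.22, limma adjusted p = 0.00487), and the others were not called. This was 1 of 3 (33.3%), against 18.4% of all genes.

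Of 7 measured transcription factors known from KIT regulatory regions, 0 were called by limma between breeds, where 3.72% of all genes were. Of the 7, 0 had an unadjusted p under 0.05, where 1526 of all 9538 genes did, and differences ran from -0.09 to 0.08. MITF, the master regulator of melanocytes, differed by -0.03 (SE 0.09) and GATA2, which activates KIT in mast cells, by 0.04 (SE 0.10). With heat, 3 of 7 (42.9%, against 18.4% of all genes) rose in limma: the blood and endothelial factor LMO2 by 0.30 (adjusted p = 0.000859), ETV1 by 0.48 (adjusted p = 0.00102) and SPI1, a factor of myeloid cells, by 0.65 (adjusted p = 0.0349). SPI1 kept the call in 23 of the 35 fits that left out 1 array, and the other two in all.

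Cell types that are known to carry KIT were checked by their markers. Of 16 mast cell markers, 5 were measured. None was called by limma between breeds, where 3.72% of all genes were. Of the 5, 1 had an unadjusted p under 0.05, as did 1526 of all 9538 genes. HDC, ENPP3 and BTK were well above background on only 16, 19 and 24 of 35 arrays. FCER1G is also made by other leukocytes, so this list says little of mast cell content. The mast cell proteases CPA3, CMA1, TPSAB1 and TPSB2 had no kept probe. The mean level of the 5 measured markers had a median of 7.28 in Creole (6.46 to 8.17), 7.39 in F1 (7.01 to 7.73) and 7.29 in Large White (6.80 to 7.94). MS4A2, the beta chain of the IgE receptor, differed by 0.25 (SE 0.12). Of the interstitial and progenitor markers, CD34, THY1 and ENG were measured. None was called by limma between breeds, against the same 3.72% of all genes. Of these 3, 1 had an unadjusted p under 0.05, as did 1526 of all 9538 genes. ANO1, which marks interstitial cells of Cajal, had no kept probe.

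Among melanocyte and pigmentation genes, the defining melanin enzymes TYR and TYRP1 and the melanosome proteins PMEL and MLANA had no kept probe. Of 18 listed genes, 10 were measured, and 5 of them were called between the breeds in limma, 4 lower and 1 higher in Creole, where 3.72% of all genes were called. The median difference of the list was -0.14. The count was 2 with normexp or with no filter on dim probes, and 3 with the scaled processed signal or with slide as a block. The endothelin receptor EDNRB, needed by melanocyte precursors and also made by blood vessels, averaged 7.36 ± 0.26 (SD) on the Large White arrays and 6.59 ± 0.48 on the Creole arrays, a difference of -0.77 (SE 0.14, adjusted p = 0.000842). SLC45A2, a melanosome transporter, was higher in Creole by 0.36 (SE 0.09, adjusted p = 0.0230). Both kept the call whichever array was left out.

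The other three were closer to the threshold. GPR143 (-0.43, adjusted p = 0.0490), RAB27A (-0.35, adjusted p = 0.0392) and MLPH (-0.53, adjusted p = 0.0422), all with roles in melanosomes or in vesicle transport, kept the limma call in 11, 23 and 20 of the 35 fits that left out 1 array. GPR143 kept it in 1 of 7 other settings. For MLPH the flag for a signal well above background was set on 11 of 12 arrays in Large White but on 5 of 12 in Creole. It passed the filter through Large White, and its difference ran from -1.07 to -0.30 over those settings, so its size is uncertain. With any 1 array left out, the count of called genes in the list ranged from 2 to 5, and on TN or HS arrays alone it was 0 and 1. The melanocyte factors SOX10 and PAX3 and the melanin enzyme DCT differed by 0.14, 0.02 and 0.02 and were not called.

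Of 7 measured endothelial markers, 3 were lower in Creole in limma, where 3.72% of all genes were called, with a median difference of -0.27 over the list. They were KDR, the receptor for vascular endothelial growth factor (-0.96, SE 0.16, adjusted p = 0.000348), the tight junction gene CLDN5 (-0.59, adjusted p = 0.0205) and PECAM1 (-0.40, adjusted p = 0.0275). Of 4 other kept probes of PECAM1, 0 were called lower and 1 pointed upwards. Of 2 others of KDR, 0 were called, and the 1 other of CLDN5 was called lower too. VWF, CDH5, TEK and TIE1 differed by -0.05, -0.17, 0.00 and -0.27 and were not called. The mean level of all 7 had a median of 10.30 in Creole (up to 10.75), 10.50 in F1 (10.12 to 11.03) and 10.70 in Large White (10.48 to 11.28), the same order as KIT. On TN arrays alone 1 of the 7 was called and on HS arrays alone 0. The part of endothelial content in the KIT difference was not tested.

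Among the remaining lists, 1 of 8 leukocyte markers (12.5%) was lower in Creole in limma, the T cell coreceptor CD8A (-0.44, adjusted p = 0.0193). Of its 3 other kept probes, 2 were called lower too. The median difference of the leukocyte list was -0.36, against -0.27 for the endothelial list. The mean level of the 8 markers had a median of 8.19 in Creole, 8.49 in F1 and 8.41 in Large White. Of 12 muscle markers, 0 were called (1 at an unadjusted p under 0.05). Of all 9538 genes, 3.72% were called between breeds, and 1526 had an unadjusted p under 0.05. With heat, MC1R (-0.25) and EDNRB (-0.37) fell in limma, 2 of 10 pigmentation genes (20%). The vessel marker VWF fell by 0.36, 1 of 7 endothelial markers (14.3%), and FCER1G rose by 0.99, 1 of 5 mast cell markers (20%). These shares are near or below the 18.4% of all genes called with heat. FCER1G is also made by macrophages and other leukocytes.

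KDR is also the next protein-coding gene after KIT on the chromosome, so the neighbourhood was read gene by gene. The nearest 5 protein-coding genes with a kept probe on each side were taken, each by its brightest probe, and 3 of the 10 were called between breeds, all lower in Creole, where 3.72% of all genes were called. Besides KDR these were FIP1L1, an mRNA processing factor (-0.24, SE 0.06, limma adjusted p = 0.0123), and LOC100525350 (-0.27, SE 0.08, adjusted p = 0.0355), the gene after KDR, which kept the call in 26 of the 35 fits that left out 1 array. PDGFRA, the protein-coding gene just before KIT, differed by -0.13 and LNX1 and CHIC2 by 0.00, and none of these was called. On TN arrays alone 1 of the 10 was called and on HS arrays alone 0. With heat, 0 of the 10 were called by limma, against 18.4% of all genes. An unadjusted p under 0.05 was found for 0 of them, and for 3293 of all 9538 genes.

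The brightest KDR probe had the pattern closest to KIT in this region. It ranged from 7.23 to 8.58 (median 8.21) in Creole, from 7.71 to 9.48 (median 8.61) in F1 and from 8.73 to 9.50 (median 9.04) in Large White. The parental breeds thus did not overlap, and the share of all genes without such overlap was not counted. This KDR probe kept the limma call in all 35 fits that left out 1 array. The other KDR probes were lower in Creole by much less, at -0.21 (SE 0.11, adjusted p = 0.329) and -0.15 (SE 0.07, adjusted p = 0.340), and were not called. The KDR call thus rests on 1 of 3 probes, though all 3 pointed the same way. The 2 probes of FIP1L1 read alike, at -0.24 and -0.23. A second, dimmer probe of SCFD2 was called in the opposite direction, at 0.24 (SE 0.06, limma adjusted p = 0.0174).

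**Figure D4:**
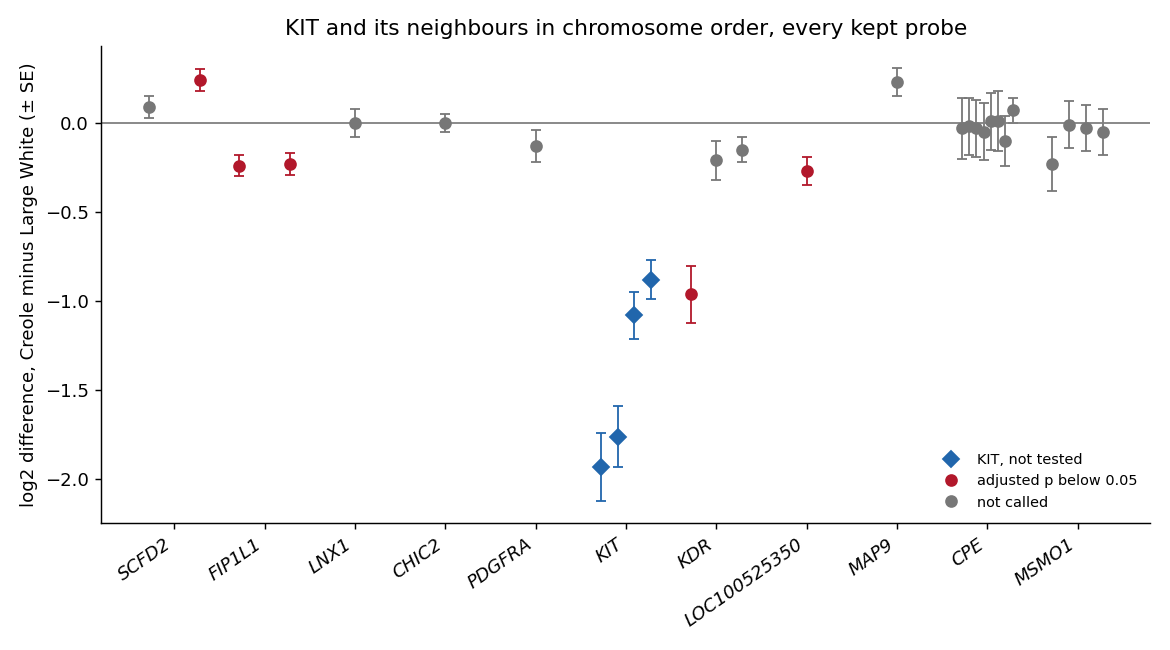
Creole minus Large White on the log2 scale (± SE) for every kept probe of KIT and of its nearest protein-coding neighbours with a kept probe, in chromosome order. Evenly spaced names do not show distance. The 4 KIT probes lie between -1.93 and -0.88, 1 KDR probe at -0.96, and every other neighbouring probe between -0.27 and 0.24.

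Over the 35 arrays, the genes with the pattern most like A_72_P165111, among 9527 genes with 1 probe each, were GALNT16 (Pearson r = 0.815), STC1 (r = 0.813), KDR (r = 0.799), MXRA7 (r = 0.776) and PPP6R3 (r = 0.776). The lowest were WDR3 (r = -0.699), TRIM13 (r = -0.694), EML2 (r = -0.693), HDDC2 (r = -0.691) and C1GALT1 (r = -0.690). These values carry the breed difference that the genes share with KIT. All 5 of the first set had means that rose from Creole through F1 to Large White, and all 5 of the second set had means that fell.

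After removal of the group means, the most similar genes were others: NOS2, the inducible nitric oxide synthase (r = 0.819), the adaptor DOK4 (r = 0.776), RAPGEF5 (r = 0.727), the transcription factor ETS1 (r = 0.726) and PTPRK (r = 0.715). KDR had r = 0.521 there and PPP6R3 0.189. These correlations describe differences between animals within a group on shared arrays, over 35 arrays, and were not tested.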

How the data were processed

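LD muscle RNA of 35 pigs was labelled with Cy3 and hybridised to 1-colour Agilent porcine arrays, 1 array per pig on 5 slides. The deposited scanner files, made by the authors with Feature Extraction 10.10.1.1, hold linear intensity values per spot. The deposited value table holds log2 values of 40649 probes, which the authors quantile-normalised and filtered. No genome is needed for these values, and coordinates come from the RefSeq table.

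Here the median pixel intensity was quantile-normalised without background subtraction and log2-transformed, outlier spots were set to missing, and probes were kept where 75% or more of the arrays in any group had them well above background. The tool for all contrasts was limma (version 3.58.1, R 4.3.3), with Benjamini-Hochberg adjustment over all 41517 kept probes at 0.05. The additive model held breed and temperature; the random terms of the study methods (pen, slaughter day, parents) are not in the labels. Genes other than KIT are given by their brightest kept probe. Replicate numbers follow deposition order. The fits were tested on simulated arrays. Intervals at 95% come from limma.

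KIT, the gene lists and the tests were chosen with earlier results of these data known. Named genes are all KIT probes, list and neighbouring genes past the threshold or brightest in their list, and the 5 genes at either end of the ranking by Pearson r with the brightest KIT probe and the 5 highest after removal of group means. Alternatives were the processed signal scaled to its 75th percentile, normexp (offset 50), median scaling, no filter, slide as a block, array weights, the authors' table, no breed term, each temperature alone and each array left out. The number of arrays limits the precision.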

Additional observations from a re-analysis of the deposited data

Results flagged for a closer look

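In the Creole HS group, KIT probe A_72_P180731 had 1 array that stood apart from the rest. It read 5.67 on the log2 scale, and the next highest array read 5.40, a gap of 0.651 of the group's whole range. The probe was not well above background on that array. By the brighter probe A_72_P165111 the same array was also the highest of its group, at 8.34. Of 24 sets of arrays examined (4 probes in 6 groups), 1 was marked in this way, where chance gives about 1.2.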

How the results depend on the processing

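The lower KIT level in Creole than in Large White kept its direction under every alternative. By the 3′ UTR probes it moved by less than the spread between arrays. By the coding probes it moved more: O299 gave -2.52 with the scaled processed signal and -0.65 after normexp, and A_72_P180731 gave -2.23 with the scaled processed signal. No KIT probe was called for heat, for heat within a breed or for the interaction under any alternative. For the coding probes, near background in Creole, this says little of that breed. F1 minus the midpoint stayed below 0.

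Heat differences near 0 changed sign without being called. Over all breeds, A_72_P441559 became 0.0044 with median scaling. O299 became -0.10 with the processed signal, -0.035 with median scaling, -0.027 with slide as a block and -0.011 in the authors' table, and A_72_P180731 became -0.046, -0.042, -0.017 and -0.0080. In Creole, A_72_P441559 became 0.021 with median scaling and 0.12 with slide, O299 0.082 with slide and A_72_P180731 -0.046 with median scaling. In Large White, A_72_P165111 became 0.022 and A_72_P180731 -0.016 with median scaling. With slide A_72_P441559 became -0.22, O299 -0.097 and A_72_P180731 -0.17, and A_72_P441559 became -0.024 with the processed signal and -0.0083 after normexp.

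Leaving out 1 array at a time gave no KIT call in these contrasts. The heat difference over all breeds then ranged from -0.12 to 0.019 by A_72_P165111, from -0.11 to 0.014 by A_72_P441559, from -0.048 to 0.053 by O299 and from -0.031 to 0.049 by A_72_P180731, in each case highest without Large White TN replicate 1. In Creole it ranged from -0.13 to 0.046 by A_72_P441559 and from -0.098 to 0.0096 by O299. In F1 it ranged from -0.13 to 0.022 by O299 and from -0.12 to 0.049 by A_72_P180731. In Large White it ranged from -0.25 to 0.17 by A_72_P165111, from -0.13 to 0.24 by A_72_P441559, from -0.035 to 0.28 by O299 and from -0.11 to 0.14 by A_72_P180731.

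The count of probes called between Creole and Large White fell from 1513 to 220 on TN arrays alone and to 97 on HS arrays alone, where fewer arrays were fitted. The 102 probes called for F1 against the midpoint became 28 with the processed signal, 289 with array weights, 4 on TN and 3 on HS arrays alone, and 48 (without F1 TN replicate 3) to 141 (without Large White TN replicate 1) with 1 array left out. No paired analysis was possible because the replicate numbers were given in accession order and pair nothing. The dim coding probes are a limit of these data: where their signal is not well above background, it gives only an upper bound. Both 3′ UTR probes were well above background on all 35 arrays.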
